A study of Mus musculus with 4 samples.

Results

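The regions described here were distal ATAC-seq regions that carried a peak in each of 4 libraries, both before and after the endothelial programme started in differentiating mouse embryonic stem cells (mESCs). They were selected on the peak calls themselves. Joining every set of peaks with an overlap of 1 bp or more gave 40910 union regions over the 4 libraries. Of these, 11494 had a peak in all 4, and 1630 of the 11494 (14.2%) lay more than 1000 bp from every transcript start of GENCODE release M 21 on mm10. These 1630 shared distal regions were 3.98% of all union regions and 7.17% of the 22746 distal ones. The other 9864 regions with 4 peaks (85.8%) were at transcript starts and are called shared promoters below.

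All 4 libraries came from wild-type ES-E14TG2a, a line of mESCs, put through a cardiogenic differentiation in serum-free medium. Cells of the d2 group (2 libraries) had grown as aggregates without added growth factors, and cells of the d4 group (2 libraries) had since been reaggregated with Activin A, BMP4 and VEGF, which drive mesoderm and then endothelial fate. The 2 libraries of a day came from separate differentiation experiments of this single line. No sort of cells is stated for them, so each value is an average over a whole culture, in which fewer accessible cells and less accessibility per cell cannot be told apart. The study compared the days to find regulatory elements of ECs, and the shared distal regions are the part of the distal accessible genome that the peak calls did not separate by day.

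ATAC-seq reads out DNA that a transposase can reach. Distal sites that stay accessible across cell states commonly include insulator sites bound by the zinc-finger protein CTCF, which with cohesin holds chromatin loops, promoters missing from an annotation, genes read by RNA polymerase III such as tRNA genes, and enhancers used in more than one state. GATA factors, ETS factors, TEAD factors and forkhead factors bind enhancers of mesoderm and endothelium, while OCT4 (octamer motif) and SOX2 bind those of pluripotent cells, and SNAI and ZEB repressors bind an E-box.

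A sequence feature that shared distal regions held more often than gained or lost distal regions was the CTCF consensus. It is a 12-base pattern with 4 positions that each allow a pair of bases. Shown here, to make that feature visible, are matches in 6 of the strongest regions that held one. Each line gives 30 bases of the C57BL/6J reference assembly GRCm38.p6 (mm10), read 5′ to 3′ on the strand of the match, with the match in capitals; the cell line is of another strain, and its own sequence was not read.
Near Ppid (chr3:79586943-79586972, minus strand): cagcagatgCCACCAGGGGGCagcagaggc
Intron of Ldb3 (chr14:34549567-34549596, minus strand): cccgcatgcCCACCAGGGGGCggccgggcc
Near Psmd1 (chr1:86059620-86059649, plus strand): gccttgaaaCCACCAGAGGGCgctgtaaaa
Intron of Gm4681 (chr14:120138036-120138065, plus strand): gcattccgtCCAGCAGGGGGCagcagagct
Near Xkr5 (chr8:18954177-18954206, plus strand): ccagcatggCCAGCAGAGGGCagccgcgca
Intron of Agrp (chr8:105622557-105622586, plus strand): gagctgtcgCCACCAGGGGGCagcagaact
The last of these lay 13679 bp from the nearest coding start, that of Ctcf itself.

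A second feature was tRNA genes, which carry their promoter inside the transcribed sequence and are not in the GENCODE set that defined distal. Shown are 3 tRNA genes of RefSeq (GRCm38.p6) that overlapped strong regions, whole and on the coding strand, with the B box of the internal promoter (GTTCGANNC) in capitals. The tRNA-His gene overlapped its region only in part, and its B box lay outside.
tRNA-Asn n-TNgtt14 (chr5:149229001-149229074, minus strand): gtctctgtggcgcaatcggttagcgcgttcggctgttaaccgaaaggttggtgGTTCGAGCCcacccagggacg
tRNA-His n-THgtg4 (chr2:122375494-122375565, minus strand): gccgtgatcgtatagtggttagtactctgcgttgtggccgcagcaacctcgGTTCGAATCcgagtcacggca
tRNA-Glu n-TEttc7 (chr7:58399315-58399386, plus strand): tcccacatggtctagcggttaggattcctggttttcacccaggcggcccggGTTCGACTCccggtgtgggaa

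The GATA motif occurred in several of the shared distal regions that rose most from d2 to d4. To show its setting, the match closest to the summit is given for 4 of them, with the motif (AGATAA or TGATAA) in capitals between 17 flanking bases on each side. The region near Prtg lay 240 bp from a RefSeq start of Gm27204, a noncoding gene.
Intron of Sh3rf1 (chr8:61283951-61283990, minus strand): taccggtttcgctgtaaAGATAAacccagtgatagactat
Intron of Limk2 (chr11:3387159-3387198, plus strand): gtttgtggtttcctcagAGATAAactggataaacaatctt
Intron of Sptbn1 (chr11:30161312-30161351, plus strand): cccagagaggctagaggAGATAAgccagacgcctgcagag
Near Prtg (chr9:72779993-72780032, minus strand): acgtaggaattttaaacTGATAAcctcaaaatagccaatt

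The libraries held between 21299 and 26865 peaks. Read totals were not part of the deposited peak lists, but the pileup at each summit (the number of fragments or extended reads over it) and the local background could be solved from the listed fold enrichment and p-value. Genome-wide background coverage, a measure of relative depth, was 0.568 and 0.483 in the d2 libraries and 0.755 and 0.744 in the d4 libraries (replicate 1 first). The median summit pileup of the 1630 regions was 18, 19, 19 and 19 in that order, against 23, 28, 26 and 25 for the shared promoters. Shared distal summits were thus of moderate height, with a lowest pileup of 6 or 7 in each library and a highest of 67, 75, 84 and 77. The median fold enrichment over local background was 8.83, 9.38, 8.62 and 8.52.

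The limits of the rule cut through a continuous range. The regions just inside it lay 1012 bp from a start of Sin3a, 1015 bp from Arhgap23 and 1016 bp from Magix, and those just outside lay 981 bp from Macrod1, 981 bp from Bach1 and 985 bp from Gm26803. The weakest of the 4 peaks of a region had a −log10 q of 3.02 at the least (a region near Ahdc1), close to the calling limit of the peak lists, and 8.87 at the median. It was below 5 in 126 regions, which rest on few fragments in at least 1 library.

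Shared distal regions were mostly intergenic, and all but 143 lay within 50 kb of a start. Of the 1630, 888 (54.5%) were intergenic, 544 (33.4%) intronic, 110 (6.75%) touched an exon and 88 (5.4%) a UTR. Introns held 47.8% of the 3566 distal regions called in both d4 and neither d2 library (gained distal regions) and 41.7% of the 3871 called in both d2 and neither d4 library (lost distal regions). The median distance to the nearest start was 9234 bp. It was 15777 bp for gained and 12611 bp for lost distal regions. Shared distal regions were also wider, with a median of 395 bp against 282 and 264 bp, although a union of 4 peaks can only be as wide as or wider than each of them.

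In base composition the shared distal regions fell between promoters and the other distal classes. Within 100 bp of the summit, the median GC content was 57.2%, against 50.7% in gained distal regions, 53.2% in lost distal regions and 66.2% in shared promoters. The median number of CpG dinucleotides was 6, against 2, 3 and 17. A window with a GC content of at least 50% and an observed-to-expected CpG ratio of at least 0.6, called CpG island-like here, was found at 430 summits (26.4%, 95% Wilson interval 24.3 to 28.6). The share was 1.15% (0.849 to 1.56) in gained and 7.47% (6.68 to 8.34) in lost distal regions and 81.9% in shared promoters. Distal regions with a peak in 3 libraries had 14.4%. These intervals, like those below, cover counting error over regions only.

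A second annotation placed some of these regions at transcript starts after all. RefSeq, which includes tRNA genes and predicted models, had a start within 1000 bp of 201 shared distal regions (12.3%, interval 10.8 to 14), against 3.59% of gained and 5.01% of lost distal regions and 8.97% (7.57 to 10.6) of distal regions with a peak in 3 libraries. Predicted noncoding RNAs were nearest in 77 of the 201, predicted mRNAs in 54, tRNA genes in 34, curated mRNAs in 16 and curated long noncoding RNAs in 16. Of the 430 CpG island-like regions, 334 had no RefSeq start within that distance. Leaving these 201 regions out, 116 of 1429 regions (8.12%) held a CTCF match, and 118 were called higher and 66 lower at d4.

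**Figure D1:**
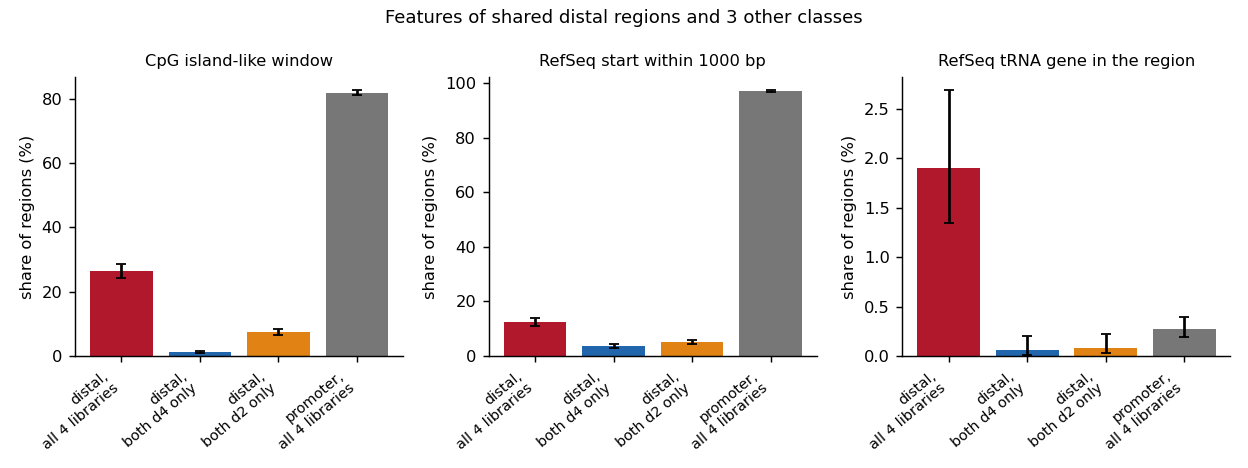
Share of regions (%, bars, with 95% Wilson intervals) that had a CpG island-like summit window, a RefSeq start within 1000 bp, or a RefSeq tRNA gene, in shared distal regions, gained and lost distal regions and shared promoters. The shared distal bars (26.4%, 12.3% and 1.90%) stand above those of both other distal classes in each panel, and in the tRNA panel also above the shared promoters (0.274%).

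RefSeq tRNA genes overlapped 31 of the 1630 regions (1.90%, interval 1.34 to 2.69), with 37 genes of 15 kinds in all. Arginine had 6 genes, and glutamate and proline 5 each. The same held for 2 gained distal regions (0.0561%), 3 lost ones (0.0775%) and 27 shared promoters (0.274%). Across all distal regions, 70 held a tRNA gene, and of these 31 had a peak in 4 libraries, 16 in 3, 10 in 2 and 13 in 1. The B box letters were in 30 of the 37 genes. Reads with several map positions had been removed by the authors, so the pileup at tRNA genes with near-identical copies is uncertain.

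Few of the tRNA gene regions were called between days. The region of the tRNA-Asn gene shown above had summit pileups of 42 and 63 at d2 and 48 and 53 at d4, and the tRNA-His region had 42 and 40, then 62 and 47. The d4 values overlapped the d2 values in the first and were above them in the second, where the difference was 0.39 ± 0.20 (SE) on the log2 scale and not called (limma adjusted p = 0.22). Over the 31 regions the median difference was 0.08, and 1 was called lower and none higher at d4, counts that 31 regions at the shares over all tested regions (2.78% lower and 6.14% higher) would nearly give too. At an unadjusted p under 0.05, limma gave 2 higher and 3 lower. The one called lower lay in an intron of Aim2, a DNA sensor gene, with pileups of 40 and 36 at d2 and 11 and 17 at d4 (−1.48 ± 0.28, limma adjusted p = 0.00034).

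CTCF is the best known insulator protein of vertebrates, and its consensus was more frequent at shared distal summits than in gained distal regions, lost distal regions or shared promoters. A match to it was found no more than 100 bp from the summit in 124 of 1630 (7.61%, interval 6.42 to 9.0). The share was 1.09% in gained distal regions, 4.08% in lost distal regions, 0.811% in shared promoters and 3.58% in all 40910 union regions. In windows of the same length 2000 bp away from the shared distal summits it was 0.184%. Distal regions with a peak in 3 of the 4 libraries had a share of 10.1%, above that of the shared distal regions.

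Allowing 1 mismatch, which was looked at after the strict result, 391 shared distal regions (24.0%, interval 22.0 to 26.1) held the pattern, against 5.36% of gained and 13.8% of lost distal regions, 5.64% of shared promoters, 12.4% of all union regions and 2.88% of the windows 2000 bp away. In distal regions with a peak in 3 libraries the share was 28.2% (25.9 to 30.7). Strict matches were at the summit rather than spread over the region. The 50-bp bins on either side of the summit held matches in 42 and 51 regions, and bins beyond 150 bp held 4 or fewer. The 124 matches lay on the plus strand in 66 regions and the minus strand in 58. Next neighbours on a chromosome pointed toward each other in 29 pairs, away from each other in 28 and the same way in 47. The median distances of these pairs were 8.16e+06, 1.35e+07 and 7.62e+06 bp, and loops between them were not tested.

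**Figure D2:**
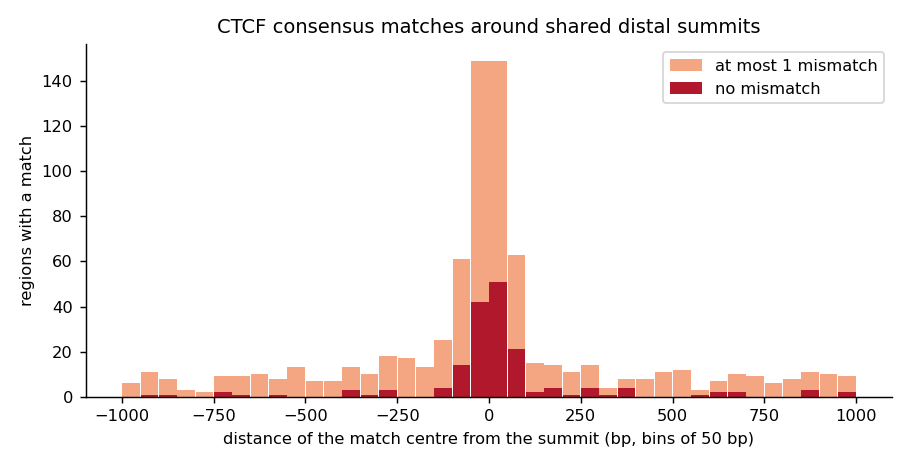
Number of shared distal regions with a CTCF consensus match (both strands) in each 50-bp bin of distance from the summit of the strongest peak, with no mismatch and with at most 1. The bins within 50 bp of the summit hold 42 and 51 regions for strict matches and 149 each with 1 mismatch, far above the bins at the edges.

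Motifs typical of promoters came next. The GC box bound by KLF and SP factors (CCCCGCCC or CCCCACCC) was within 100 bp of the summit in 19.3% of shared distal regions, against 5.33% of gained and 11.3% of lost distal regions, 33.7% of shared promoters, 18% of all union regions and 5.09% of the windows 2000 bp away. The CCAAT box of NFY (AGCCAAT), a trimeric factor of many housekeeping promoters, was in 8.28%, against 3.31%, 4.73% and 11.4% in those classes and 5.87% in all union regions. The CREB site (TGACGTCA) was in 1.72%, against 0.393%, 0.181% and 3.50% and 1.30% in all union regions. The TFAP2 pattern (GCCNNNGGC), which overlaps other GC-rich letters, was in 13.9%, against 9.06%, 9.27% and 22.6% and 14.7% in all union regions. For each of these 4 motifs the shared distal share stood between the other distal classes and the promoters. GC content differed between the classes in the same order, and its part in these shares was not tested.

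Of the motifs of stage-specific factors, several were near their level away from the summit, GATA letters were below it, and ZIC and ETS letters were above it. GATA letters were in 12.1% of shared distal regions and in 17.8% of the windows 2000 bp away, against 53.4% of gained distal regions, 9.61% of lost ones and 15.5% of all union regions. The SNAI and ZEB E-box (CACCTG) was in 14.3%, against 16.0% in the windows 2000 bp away, 30.1% in lost distal regions and 17% in all union regions. AP-1 (TGANTCA) was in 6.63% and 6.07% away from the summit, and TEAD (CATTCCA) in 3.50% and 3.37%. Forkhead (TGTTTAC) was in 4.17% and 3.07%, SOX (CCATTGT) in 3.19% and 3.56%, and the octamer (ATGCAAAT) in 2.15% and 1.60%. The shares in all union regions were 6.18%, 3.50%, 3.14%, 2.68% and 1.89% for these last 5. The ZIC pattern (CAGCAGG) was in 16.9% and 5.46% away, against 24.1% of lost and 14.1% of gained distal regions and 14.3% of all union regions. Some CTCF matches hold this pattern whole, as the printed Gm4681 site does, and their part in its share was not tested. ETS letters (CCGGAAGT or CAGGAAGT) were in 4.17% and 2.02% away, against 6.34% of gained distal regions, 9.17% of shared promoters and 5.15% of all union regions.

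**Figure D3:**
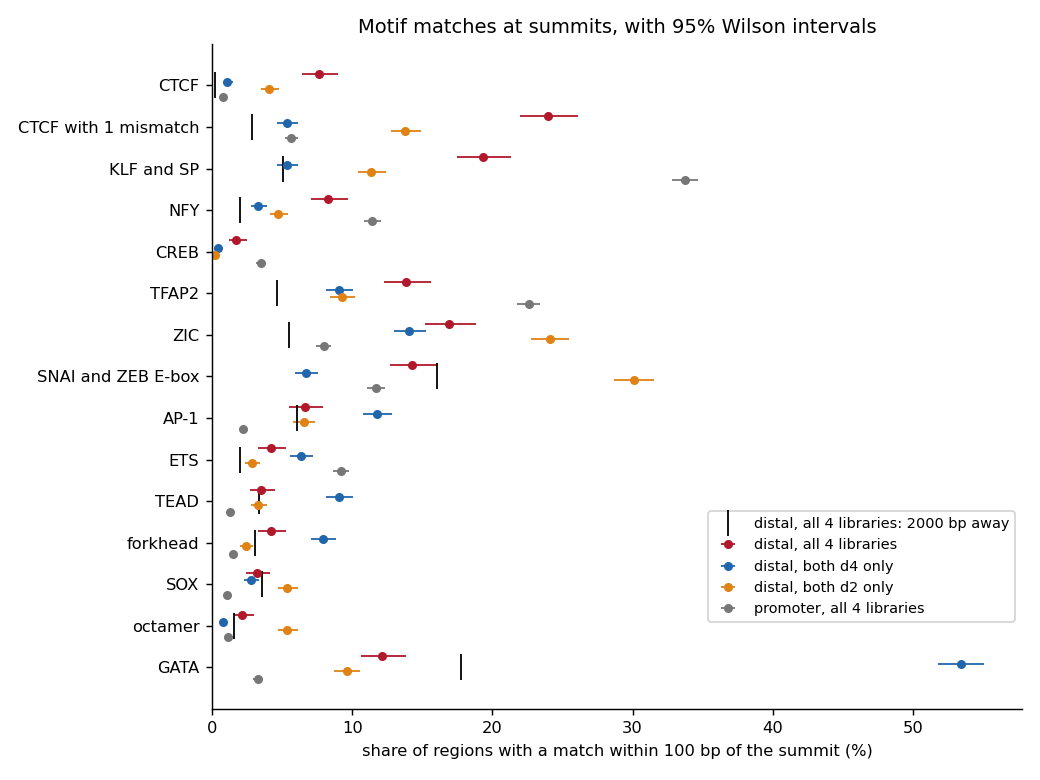
Share of regions (%, points, with 95% Wilson intervals) holding each motif within 100 bp of the summit, in shared distal regions, gained and lost distal regions and shared promoters, with black ticks for windows 2000 bp from the shared distal summits. Shared distal regions lead for CTCF (7.61%), lie between the other distal classes and promoters for KLF and SP (19.3%) and NFY (8.28%), and lie far under the gained distal regions for GATA (12.1% against 53.4%).

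The strongest shared distal regions included sites in gene-poor stretches, introns and UTRs. Regions were ranked by the lowest of their 4 summit pileups, each over the genome-wide background of its library, and the ratio ran from 65.9 to 103 among the first 12. The highest was an intergenic region on chr13:84347978-84348564, 96707 bp from the nearest coding start (Tmem161b), with summit pileups of 61 and 60 at d2 and 79 and 77 at d4. The next lay 5044 bp from Mog, which encodes a myelin glycoprotein, with 44 and 61 at d2 and 60 and 71 at d4. The groups overlapped at Mog and did not at the first region, where the difference of 0.36 ± 0.15 was not called (limma adjusted p = 0.14).

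The third of these lay in a UTR at Rap2b, a Ras-family GTPase gene, on chr3:61363144-61364858. It had 42 and 55 at d2 and 84 and 74 at d4, and it was called higher (0.71 ± 0.16, limma adjusted p = 0.0029), though in 3 of the 7 fits described below. RefSeq places a start of Rap2b inside it. An intronic region of Insr, the insulin receptor gene, had 42 and 43, then 57 and 52. A region 2879 bp from Igf2bp3, an RNA-binding protein gene, had 39 and 55, then 66 and 61. An exonic region of Clec11a, a secreted growth factor gene, had 41 and 45, then 53 and 55. In each of these 3 the d4 pileups were above the d2 pileups, with no call, but the d4 libraries were deeper. The deposited fold enrichment at Insr was 15.54 and 17.74 at d2 and 15.45 and 14.93 at d4, so it was lower at d4. At Igf2bp3 and Clec11a the fold enrichment overlapped between days. Of the 12, 3 were called (all higher at d4, the other 2 in 2 of the 7 fits), where 7.85% of all shared distal regions were called higher. Among the same 12, 3 lay within 1000 bp of a RefSeq start, 5 held the NFY motif and none a strict CTCF match.

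None of the 6 regions with the printed CTCF sites was called between days. Over all shared distal regions 12.5% were called, a share at which 6 regions could also give none. The site near Ppid, a cyclophilin gene, had summit pileups of 23 and 21 at d2 and 30 and 29 at d4. The one near Psmd1, a proteasome subunit gene, had 30 and 39, then 28 and 30. The site in the intron of Agrp had 34 and 33, then 30 and 23. The days met at 30 for Psmd1 and lay apart at the others (limma adjusted p = 0.35, 0.58 and 0.41). The region near Xkr5 differed most of the 6, with 25 and 17, then 49 and 25, values that met at 25 (0.76 ± 0.28, limma adjusted p = 0.079, called in 1 of the 7 fits described below). The region in Gm4681 had 21 and 32, then 34 and 34, and the one in Ldb3 had 30 and 24, then 29 and 31. The median summit pileup of the 124 regions with a strict match was 17 in every library.

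Heights of shared distal regions correlated less between days than within a day. Across the 1630 regions, Pearson's r of log2 summit pileup was 0.736 between the d2 libraries and 0.799 between the d4 libraries, and 0.413 to 0.464 between libraries of different days. Across the 9864 shared promoters it was 0.771, 0.882 and 0.680 to 0.738. These are descriptions across regions, which share libraries, depth and base composition and are not replicates. Summit positions did not show this gap. The median distance between summits of a region was 41 bp for the d2 pair, 38 bp for the d4 pair and 42 to 45.5 bp between days.

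Change from d2 to d4 was tested with limma on the log2 summit pileup, centred on the median of all 11494 regions with 4 peaks in each library, with adjustment over all of them. The rule asked for a peak in each library, so it bounds how low a region can be on either day, and the test says nothing about regions lost or gained outright. Of the 1630 shared distal regions, 128 (7.85%) were called higher at d4, where 6.14% of all 11494 were, and 76 (4.66%) lower, where 2.78% of all were. In either direction 204 (12.5%) were called, with 8.92% over all. The median difference was 0.07 for the shared distal regions and 0.06 for all tested regions. In size, 118 shared distal regions (7.24%) and 237 shared promoters (2.40%) differed by more than 1 on the log2 scale.

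The counts depend on the processing. With summit pileups taken over each library's background and not centred, the split was 13 higher and 210 lower, with a median of −0.44 against −0.45 over all regions, so directions here are relative to the median region. Background coverage differed by day, and depth and day cannot be told apart. Refits on 3 libraries, with regions defined anew, called 36 higher and 45 lower when d4 replicate 1 was left out, 54 and 55 for d4 replicate 2, and none without d2 replicate 1 or d2 replicate 2, where limma gave 424 and 391 regions at an unadjusted p under 0.05. In all 7 fits of the 4 libraries that were centred (on all or on shared distal regions, by quantile or loess, on fold enrichment, with a block, and with no trend), 22 of the 128 and 15 of the 76 were called, and 47 of 706 and 49 of 319 over all tested regions.

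**Figure D4:**
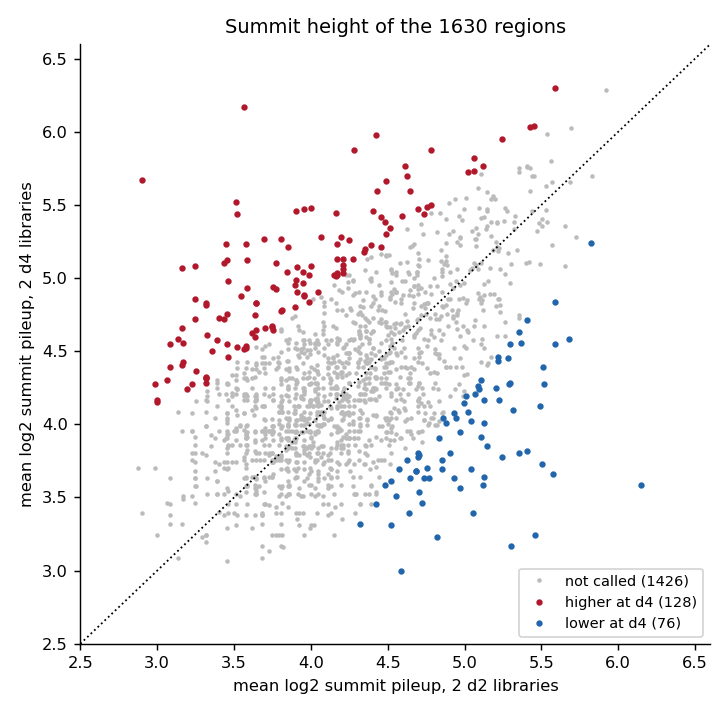
Mean log2 summit pileup of the 2 d2 libraries (x) and the 2 d4 libraries (y) for each of the 1630 shared distal regions, before centring, with regions called higher (128) or lower (76) at d4 by limma in colour and the dotted line at equal height. Called regions lie along both edges of a cloud that follows the line.

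The largest rises were at introns and intergenic sites of low d2 height. The first, in an intron shared by Sh3rf1, which encodes a ubiquitin ligase, and the antisense gene 1700001D01Rik, had summit pileups of 8 and 7 at d2 and 51 and 51 at d4 (2.76 ± 0.29, limma adjusted p = 2.1e-09). An intergenic region 32973 bp from Alox5ap, a gene of leukotriene synthesis, had 10 and 14 at d2 and 70 and 74 at d4 (2.60 ± 0.24, limma adjusted p = 9.4e-11). An intron of Pdgfd, which encodes a platelet-derived growth factor, held a region with 10 and 13, then 45 and 47 (2.00 ± 0.27). At each of these the d4 values were several times the d2 values, with no overlap. The d2 pileups of these 3, from 7 to 14, stood against a lowest of 7 and 6 for shared distal regions in the d2 libraries.

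A region in an intron of Tmem132c had 12 and 11, then 41 and 46. An intergenic one 52141 bp from Pfkfb3, which encodes an enzyme that sets the pace of glycolysis, had 8 and 10, then 39 and 29. An intron of Limk2, which encodes a kinase of the actin regulator cofilin, had 10 and 9, then 31 and 37. A region 51255 bp from Klf3, a transcription factor gene, had 17 and 7, then 33 and 43, the widest spread at d2 among the 8. An intron of Sptbn1, a spectrin gene, had 10 and 12, then 42 and 29. These 5 rose by 1.66 to 1.91 on the log2 scale (limma adjusted p at most 0.00019), and 3 of the 8 held a GATA motif and 2 an ETS motif. The Sptbn1 region was not called on the deposited fold enrichment, and the other 7 were called in all 7 fits.

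The largest falls lay in gene-poor stretches and in a few introns. The first was 54697 bp from Gm13794, a noncoding gene, and 868858 bp from the nearest coding start (Lrrc4c), with summit pileups of 67 and 75 at d2 and 12 and 12 at d4 (−2.57 ± 0.24, limma adjusted p = 9.4e-11). An intron of Pvt1, a noncoding gene beside Myc, held a region with 46 and 42, then 9 and 10 (−2.22 ± 0.28, limma adjusted p = 4.4e-07). A region 259975 bp from Cntn3, a neuronal contactin gene, had 38 and 41, then 9 and 9 (−2.14 ± 0.29) and held SOX and octamer motifs. The d4 pileups of these 3, from 9 to 12, were close to the lowest of the d4 libraries, 7.

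A region 280076 bp from Sox9, a gene of cartilage and neural crest, had 53 and 43, then 10 and 16, and one in an intron of Cmip had 44 and 47, then 11 and 16. Regions 102803 bp from Tgm3, 74205 bp from Dpt and in an intron of Vmn2r24 had 29 and 38, 42 and 43, and 25 and 32 at d2, and 10 and 11, 18 and 11, and 8 and 11 at d4. These 5 fell by 1.60 to 1.92 on the log2 scale (limma adjusted p at most 0.00036). None of the 8 held a GATA motif, and all 8 were called in all 7 fits.

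**Figure D5:**
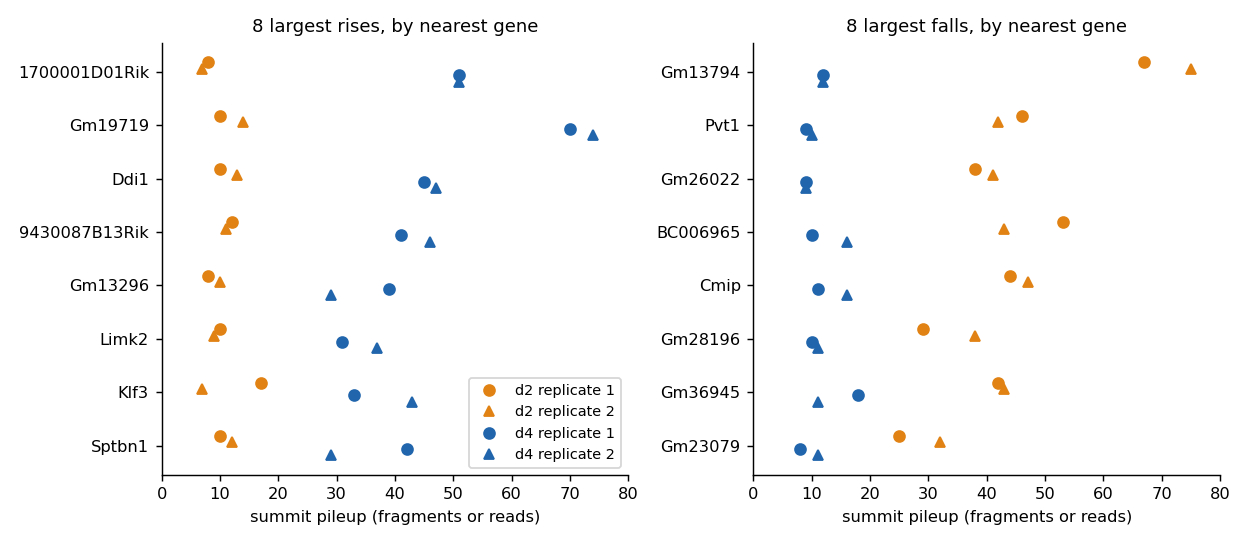
Summit pileup in each library (x, from 0) of the 8 shared distal regions with the largest rises and the 8 with the largest falls past the limma threshold, named by the nearest transcript start of any type. Colours mark the days and shapes the replicates, and the days do not overlap in any of the 16.

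The GATA motif went with higher d4 levels inside the shared set. Of the 198 shared distal regions with GATA letters, 31 (15.7%) were called higher and 3 (1.52%) lower, against 7.85% and 4.66% over all shared distal regions. The median summit pileup of the 198 was 15 and 15 at d2 and 20 and 19 at d4. The median difference was 0.31 on the log2 scale, against 0.03 in the shared distal regions without the motif. The gap between those medians was 0.18 on the deposited fold enrichment, the smallest of the 8 fits, and 0.30 at the largest. Without centring both medians were below 0 (−0.19 and −0.48), and the counts were 4 higher and 14 lower. Among the 128 regions called higher 24.2% held the motif, and among the 76 called lower 3.95% did. Examples beyond those above were a region 26604 bp from Prtg, which had 13 and 11 at d2 and 32 and 44 at d4, and one in an intron of Ugdh, an enzyme of hyaluronan precursor synthesis, with 16 and 16, then 51 and 39. Of 321 shared promoters with the motif, 39 (12.1%) were called higher and 8 (2.49%) lower. The shares over all shared promoters were 5.86% and 2.46%.

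The other motif groups gave these counts. Of 68 regions with a forkhead motif, 10 were called higher and none lower by limma (6 lower at an unadjusted p under 0.05). Of 57 with a TEAD motif, 11 were higher and 3 lower, and of 68 with an ETS motif, 9 and 2. Of 233 regions with the SNAI and ZEB E-box, 7 were called higher and 18 lower, with a median of −0.09 against 0.10 without it. Of 35 with the octamer, none was called higher and 4 lower (4 higher at an unadjusted p under 0.05). Strict CTCF matches had 4 higher and 4 lower of 124, with a median of 0.00 (quartiles −0.28 to 0.35), and KLF and SP matches had 15 and 15 of 315, with a median of 0.01. These are counts of regions against 7.85% and 4.66% over all shared distal regions, and the motif groups overlap.

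Shared distal regions were spread thinly over genes. By nearest transcript start they fell to 1544 genes, of which 1464 had 1, 75 had 2 and 5 had 3 or more. A total of 91 regions (5.58%) had another within 10 kb. Gm25888, a noncoding gene in a gene-poor stretch of chromosome 12, had 4, and Arhgap23, Atp23, Kdm6b and Sp8 had 3 each. By nearest coding start, Gpc5, Gse1 and Maml3 had 4 each.

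The 3 regions around Sp8, a zinc-finger factor gene of limb and forebrain, did not move alike. The one 8820 bp away had summit pileups of 38 and 45 at d2 and 23 and 24 at d4 and was called lower (−0.82 ± 0.23, limma adjusted p = 0.018, in 4 of the 7 fits). The one 2906 bp away had 27 and 36, then 25 and 15, and was not called (limma adjusted p = 0.097). The one 7381 bp away had 34 and 40, then 39 and 37, with overlapping days. At Kdm6b, which encodes a histone demethylase, the 3 regions had between 15 and 27 in every library and none was called, and RefSeq predicted starts lay within 1000 bp of each. At Atp23 the region 4336 bp away had 18 and 19, then 37 and 29, and was called higher (0.82 ± 0.26, limma adjusted p = 0.039, in 3 of the 7 fits), while the other two were not called. None of the 3 at Arhgap23 was called. Of the 4 with Gpc5 as nearest coding gene, one lay 1892 bp from Mir17hg, the host gene of a microRNA cluster of cell growth, with 33 and 23 at d2 and 43 and 44 at d4 (limma adjusted p = 0.073).

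Among genes of the lineages in this culture, 1 shared distal region was called by nearest start of any type, at Tal1. Of 26 endothelial genes, 4 had 1 region each by nearest start, out of 45 distal regions for that list. By nearest coding start, the endothelial list had 10 regions at 8 genes, the pluripotency list 8 at 6, the cardiac list 6 at 5 and the primed epiblast list 4 at 3. Calls were not counted per list for that assignment, so Tal1 need not be the only lineage gene with a called region. A region with Sox17 as nearest coding gene had 16 and 28 at d2 and 51 and 38 at d4. It was called higher, in 5 of the 7 fits. At Aplnr, the apelin receptor gene, the region lay 12045 bp away and had 22 and 17 at d2 and 32 and 31 at d4, which did not overlap but was not called (0.70 ± 0.27, limma adjusted p = 0.094). The study's own tests on reads listed a wider region over it as significantly more accessible at d4. The same holds for the Tal1 region below and the Sptbn1 region above. At Dll4, a Notch ligand gene, the region had 18 and 25, then 22 and 16, and in an intron of Ets1, an ETS factor gene, 14 and 15, then 14 and 19, both with overlapping days.

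Of 12 haematopoietic genes, Tal1, which encodes a master factor of blood and early endothelium, had the only region. It lay 3441 bp from a start on chr4:115052571-115052985 and had 17 and 11 at d2 and 37 and 32 at d4, and it was called higher (1.32 ± 0.29, limma adjusted p = 0.0017, in 5 of the 7 fits). Of 17 cardiac and cardiopharyngeal genes, Isl1, a factor of the second heart field, had a region with 22 and 20, then 43 and 29 (0.74 ± 0.26, limma adjusted p = 0.058), and Myl4, an atrial myosin light chain gene, one with 13 and 18, then 17 and 15. Of 20 pluripotency genes, Nanog had a region with 22 and 18, then 17 and 16, and Epcam one with 22 and 22, then 22 and 18. Of 11 primed epiblast genes, Lef1, Pou3f1 and Sox4 had 1 each, and of 11 neural genes Neurog2 had 1. None of those at pluripotency, epiblast or neural genes was called by limma, and 0 of them had an unadjusted p under 0.05. Over all shared distal regions limma called 12.5%, and 447 of 1630 had an unadjusted p under 0.05. At those shares so few regions could also give none.

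Of 24 imprinted genes, 5 had a region, none of them called by limma (3 at an unadjusted p under 0.05). Over all shared distal regions limma called 12.5%, and 447 of 1630 had an unadjusted p under 0.05. At Ndn it touched a UTR and had 26 and 27 at d2 and 41 and 38 at d4 (0.57 ± 0.23, limma adjusted p = 0.12), at Mirg it had 13 and 12, then 21 and 16, and at Dlk1 it held a strict CTCF match and had 16 and 9, then 15 and 17. The 5 were among 23 distal regions nearest to that list. The early mesoderm (13 genes), endoderm (11), Hox (39), clustered protocadherin (57) and cohesin and insulator (13) lists had none, out of 10, 22, 12, 2 and 6 distal regions nearest to them. By nearest coding start, the cohesin and insulator list had 4 regions at 4 genes, and the mesoderm, endoderm and protocadherin lists 1 each. In all genes together, 1630 of 22746 distal regions (7.17%) were shared.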

How the data were processed

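ATAC-seq was analysed in 4 libraries, 2 each at d2 and d4, grouped by the labels. According to the study's methods, the authors used cutadapt for trimming and Bowtie2 for alignment (mm10), dropped duplicate and multiply mapped reads, called peaks in each library alone with MACS2 and removed blacklisted regions. The deposited peak lists give a fold enrichment (ratio of pileup to local background at the summit) and the authors' −log10 p and −log10 q values. The stated calling options mix a paired-end mode with read extension, so pileups may count fragments or extended reads. Depth is known only as background coverage.

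Summit pileup and local background were solved from the fold and the Poisson −log10 p, and 100% of peaks gave a whole pileup (to within 0.01). Starts came from GENCODE release M 21. RefSeq and base composition came from GRCm38.p6, which is mm10. Motifs were sought on each strand of a 201-bp window, 100 bp either side of the highest peak's summit. Differences were tested with limma 3.58.1 (trend, R 4.3.3), adjusted by Benjamini-Hochberg, with calls at an adjusted p under 0.05. The script was tested on simulated data. P-values and SEs rest on the spread between 2 differentiations of a line on each day, which limma pooled over all tested regions. The weight of the pooled spread (prior degrees of freedom) was 48.9 in the main fit, so a region's own spread counted for little. An exact permutation of 2 against 2 cannot go below 0.333. Same-numbered libraries did not deviate together (r = 0.01 over regions).

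The regions, motifs and 13 gene lists were chosen with earlier results of these data known. The result of 1 list is not reported here. Named were the 12 strongest regions, the 8 largest called rises and falls, the genes with most regions (ties at 2 are not named) and up to 3 genes per list. The Agrp, Prtg, Ugdh, Aim2 and Mir17hg regions and the tRNA genes were chosen after their values were seen, and so was the B box search. Versions were python 3.11.15 and pysam 0.24.0.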

Additional observations from a re-analysis of the deposited data

How the results depend on the processing

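The CTCF share was 7.61% and ranged from 5.28% within 50 bp of the summit to 24.0% with 1 mismatch allowed, with 6.37% for peaks of −log10 q of at least 10; the remaining alternatives stayed within its interval. The number of regions, 1630, was 922 with 50% reciprocal overlap, 675 with −log10 q of at least 10, 780 with the top 15000 peaks and 790 beyond 10000 bp, and it ran from 1824 to 2092 when a library was left out. The counts of 128 higher and 76 lower became 16 and 18 with 50% reciprocal overlap, 78 and 42 with −log10 q of at least 5, 34 and 29 with at least 10, 47 and 36 with the top 15000 peaks, 73 and 42 beyond 10000 bp, 71 and 47 centred on the shared distal regions, 39 and 30 with quantile normalization, 28 and 17 on the deposited fold enrichment, 84 and 50 without the mean-variance trend, and 13 and 210 with no centring. Leaving out a library gave 0 to 54 higher and 0 to 55 lower, with the lone library of a day assumed to vary like the other day; the prior degrees of freedom that limma estimated moved from 48.9 to below 1 in the fits without a d2 library. The median of 0.07 was −0.44 with no centring and ran from 0.028 to 0.19 without a library. The cause of these shifts was not tested. With the replicate block 140 were higher and 87 lower, but the numbers only name the libraries. The prior degrees of freedom were infinite in that fit, in the one with no centring and in both fits without a d4 library. A region's own spread thus carried no weight there. A loess fit and the removal of RefSeq starts were chosen after seeing the data and gave 124 and 75, and 118 and 66. Depth limits the weakest peaks, whose pileups were 6 or 7.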
